A study of Mus musculus with 11 samples.

Results

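Transcripts of 8 glutamate and GABA transporters were examined in tissue labelled as hippocampus from mice carrying a Cas9-made deletion of the Scn1a 1b regulatory region. Members were taken by gene symbol, as 4 vesicular carriers (Slc17a6, Slc17a7, Slc17a8 and Slc32a1) and 4 plasma membrane carriers (Slc6a11, Slc1a1, Slc1a2 and Slc1a3), out of 24735 genes listed in either count table. The rule itself uses symbols and no measured value, although it was set with earlier results of these data known. All 8 were in both tables and passed the filter on low counts in both. All mice were C57BL/6N at postnatal day 32, which the labels call adult, and all mutants came from 1 deletion line. In the heterozygous round, with paired-end reads, 4 mice heterozygous for the deletion (1b+/-, 3 males and 1 female, the female being 1b+/- mouse 4) were compared with 3 WT mice, all male. In the homozygous round, with single-end reads, 2 mice homozygous for the deletion (1b-/-, mouse 1 male and mouse 2 female) were compared with 2 WT mice, both female. Each library is labelled as hippocampus and was made from 1 mouse, with tissue dissected from 1 hemisphere, and the deletion was carried by all cells rather than driven by a cell type promoter.

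Fast excitatory synapses release glutamate and fast inhibitory synapses release GABA, and both transmitters are first loaded into synaptic vesicles by carriers driven by the proton gradient of the vesicle. Slc17a7 encodes VGLUT1, the main vesicular glutamate transporter of cortical and hippocampal pyramidal and granule cells. Slc17a6 encodes VGLUT2, which predominates in thalamus and other subcortical glutamatergic neurons, and Slc17a8 encodes VGLUT3, found in scattered neurons that also use another transmitter, cholinergic interneurons of the striatum among them. Slc32a1 encodes VGAT, the vesicular carrier of GABA and glycine in inhibitory neurons. After release, glutamate is cleared by sodium-coupled carriers, Slc1a2 (GLT-1) and Slc1a3 (GLAST) mainly in astrocytes and Slc1a1 (EAAC1) mainly in neurons, and GABA is taken up by carriers that include the astrocytic Slc6a11 (GAT-3). Members therefore belong to different cells, and in bulk tissue fewer cells of a type and less RNA per cell cannot be told apart.

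Libraries held 20667122 to 36145161 counts on genes, of which 0.462% to 0.803% fell on the 8 transporters, and the lowest count of any member in any library was 122. The targeted gene had lower means in both mutant groups, and the quasi-likelihood test used here called the difference in 1b-/- mice only. The paper that reported these mice, also using edgeR, gave a significant decrease in both groups at this age. Values of Scn1a under other tests are not given here. Scn1a was measured at 97.7 CPM ± 15.5 (SD, n = 4) in 1b+/- against 136 ± 31.0 (SD, n = 3) in WT mice, with overlapping ranges (-0.47 on the log2 scale, SE 0.15, adjusted p = 0.303). It was at 21.5 CPM ± 6.80 (SD, n = 2) in 1b-/- against 153 ± 27.5 (SD, n = 2) in WT mice, without overlap (-2.83 on the log2 scale, with an adjusted p of 0.0211 from the quasi-likelihood test of edgeR). Markers of brain regions were not even across libraries, and the WT libraries of the homozygous round went against their tissue label. In them the summed level of 11 striatal markers (adenosine and dopamine receptors and neuropeptides among them) was 3231 and 7814 CPM, against 229 and 312 CPM in 1b-/- libraries, and 7 cholinergic neuron markers summed to 55.8 and 119 CPM against 3.86 and 7.05 CPM. By contrast, 6 dentate granule cell markers summed to 37.4 and 37.7 CPM in these WT libraries against 201 and 246 CPM in 1b-/- libraries. Among single markers, Tac1 and Ido1 (striatum), Chat and Slc5a7 (cholinergic neurons) were lower in 1b-/- mice, as were Rspo1 and Rorb (neocortex). C1ql2 and Prox1 (dentate gyrus), Fibcd1 and Gpr161 (CA1) and Grik4 and Iyd (CA3) were higher, and all these named markers had an adjusted p under 0.05. Of the 6 dentate markers 5 were higher, 3 of them called. The other, Plk5, was lower without overlap and was not called (-0.56 on the log2 scale, means of 11.4 against 16.8 CPM). The neocortex list was mixed, with 4 of 6 markers lower, 2 higher (Fezf2 and Scnn1a) and 2 called. Its sums overlapped, at 205 and 141 CPM in 1b-/- against 192 and 220 CPM in WT mice. No marker of thalamus, hypothalamus, interneurons, astrocytes, oligodendrocytes, microglia or choroid plexus was called in 1b-/- mice, although choroid plexus markers summed to between 52.8 and 13630 CPM in that round, and no marker of any list was called in 1b+/- mice. All 6 oligodendrocyte markers were still lower in 1b-/- mice, with sums of 11550 and 13520 CPM against 22530 and 16290 CPM in WT mice. So were all 6 microglia markers, with sums of 385 and 309 CPM against 438 and 458.5 CPM. In the heterozygous round, thalamic markers summed to 505 CPM in WT mouse 1 and 358 CPM in 1b+/- mouse 4, against 118 to 258 CPM in the other 5 libraries. These values are given beside the transporters they move with.

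On mm9, with positions from GENCODE, Slc17a7 lies on chromosome 7 from 52419291 to 52431508 and Slc17a6 on the same chromosome from 58877200 to 58926495, both on the plus strand. Slc32a1 lies on chromosome 2 from 158436494 to 158441484 (plus), Slc1a2 on chromosome 2 from 102498816 to 102630941 (plus) and Slc17a8 on chromosome 10 from 89036765 to 89083998 (minus). Slc6a11 lies on chromosome 6 from 114081235 to 114199880 (plus), Slc1a1 on chromosome 19 from 28909539 to 28988450 (plus) and Slc1a3 on chromosome 15 from 8584124 to 8660764 (minus). Counts were made over exons of whole genes. No stretch of 50 bases was shared between transcripts of any pair of members, so reads of one family member could not be split with another. Some such stretches also occurred in a gene outside the members: 3.68% of those of Slc1a1, 1.06% of Slc17a8 and 0.392% of Slc1a2. For the other members this share was 0%. Exons of 3 members overlap a gene on the opposite strand: Slc32a1 shares 697 exonic bases with Gm14205, Slc1a2 shares 189 with Gm13872, and Slc1a1 shares 185 with 4430402I18Rik. The kit marked strand, but the strand setting of the counting is not given in the sources used here, so part of the reads of these 3 genes may belong to the partner.

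Levels can be compared between genes only per length, and for this the counts were scaled over all 11 libraries and divided by exon length (RPKM). In the 3 heterozygous-round WT mice, Slc17a7 was highest at a mean of 514 RPKM, followed by Slc1a2 at 385, Slc1a3 at 92.3, Slc6a11 at 61.0, Slc1a1 at 29.8, Slc32a1 at 27.3, Slc17a6 at 13.5 and Slc17a8 at 1.21 RPKM. Neighbours in this order did not overlap between mice except Slc1a1 and Slc32a1. The order of means was the same in 1b+/- mice, where Slc32a1 and Slc17a6 overlapped because of the high Slc17a6 of 1b+/- mouse 4. In the homozygous round Slc32a1 stood above Slc1a1, in WT mice by 2.84 times (57.3 against 20.2 RPKM) and in 1b-/- mice by 1.19 times (31.9 against 26.7 RPKM). In the WT mice of that round 3 pairs of neighbours overlapped: Slc17a7 (195 and 320 RPKM) with Slc1a2 (187 and 205), Slc6a11 with Slc32a1, and Slc17a6 (2.24 and 6.40) with Slc17a8 (3.67 and 2.47). No pair of neighbours overlapped in the 1b-/- mice. VGLUT1 and GLT-1 transcripts were thus at the top of the order in all groups and VGLUT3 transcripts at the bottom of the mean levels.

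**Figure D1:**
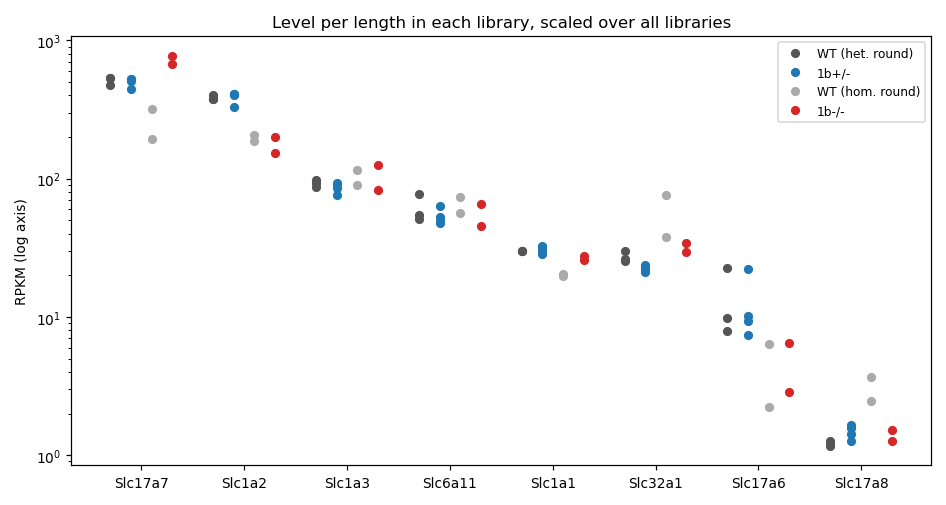
RPKM of each transporter (log axis), 1 point per library, with the 4 groups in separate colours and genes ordered by their mean in heterozygous-round WT mice. Slc17a7 lies at 195 and 320 RPKM in the WT mice of the homozygous round and between 442 and 775 RPKM in all other libraries.

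To ask whether loss of 1 copy of 1b moved the transporters, the 4 1b+/- mice were compared with the 3 WT mice sequenced with them. No member was called: edgeR's quasi-likelihood test gave an adjusted p under 0.05 for 0 of 8 members, as for 0% of the 14630 genes tested, while 1649 genes and 2 members (Slc32a1 and Slc17a8) had an unadjusted p under 0.05. The likelihood ratio test of edgeR called 0 members, against 191 of the 14630 genes tested. DESeq2 called 1 member, Slc32a1, among 245 of the 14630 genes. The median log2 fold change was -0.07 over the 8 members and 0.00 over all genes tested, with 5 members lower and 3 higher. Groups did not overlap in CPM for 1 of 8 members (12.5%), against 10.9% of all genes tested.

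Among vesicular carriers, Slc32a1 was the member that did not overlap. The 1b+/- mice had 63.0, 58.1, 65.2 and 60.04 CPM and the WT mice 69.4, 72.0 and 82.4 CPM. Every 1b+/- library was below every WT library, with means of 61.6 CPM ± 3.16 (SD, n = 4) and 74.6 CPM ± 6.92 (SD, n = 3). The log2 fold change was -0.28 (SE 0.07, 95% interval -0.43 to -0.12, unadjusted p = 0.00247, adjusted p = 0.183). Without WT mouse 1, whose thalamic markers were highest, it was -0.33 with an adjusted p of 0.0419. Without both WT mouse 1 and 1b+/- mouse 4, an alternative chosen after seeing the data, it was -0.31 with an adjusted p of 0.0636, and the other 6 fits that left out a library gave adjusted p from 0.271 to 0.507. Of 6 GABAergic interneuron markers 5 had lower means in the fit, 3 had an unadjusted p under 0.05 and 0 were called. Their sum was 193 to 201 CPM in 1b+/- mice and 197 to 246 CPM in WT mice. Striatal markers were also lower in 9 of 10 (median log2 fold change -0.62, 0 called, 6 at an unadjusted p under 0.05), with sums of 186 to 222 CPM in 1b+/- and 220.2 to 390 CPM in WT mice. All 6 oligodendrocyte markers were higher (median 0.34, 0 called). Over the 7 libraries, Pearson's r with Slc32a1 was 0.85 for the interneuron sum, 0.53 for the striatal sum and -0.81 for the oligodendrocyte sum, as a description. The part of these markers in the Slc32a1 difference was not tested.

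Slc17a8 stood at 6.54, 5.84, 7.17 and 7.57 CPM in the 1b+/- mice and at 5.84, 5.42 and 5.38 CPM in the WT mice. Its groups touched, since 1b+/- mouse 2 and WT mouse 1 lay at the same level. Its log2 fold change was 0.29 (SE 0.11, 95% interval 0.03 to 0.54, unadjusted p = 0.0312, adjusted p = 0.382). Slc17a7, the most abundant vesicular carrier, was at 1509, 1495, 1451 and 1264 CPM in 1b+/- mice and at 1361, 1520 and 1532 CPM in WT mice. These ranges overlapped from 1361 to 1509 CPM, with 1b+/- mouse 4 below every WT mouse, and the log2 fold change was -0.04 (SE 0.07, 95% interval -0.20 to 0.11, adjusted p = 0.859).

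Slc17a6 varied more between mice than any other member. It stood at 39.4, 30.9, 42.8 and 92.8 CPM in 1b+/- mice and at 95.1, 41.3 and 33.3 CPM in WT mice, so that 1 library of each genotype was high. Those 2 libraries, WT mouse 1 and 1b+/- mouse 4, were also the highest in thalamic markers, in Slc6a11 and, for WT mouse 1, in Scn1a (171 CPM). Over the 7 libraries of the round, Pearson's r between Slc17a6 and the summed thalamic markers was 0.905 on the log scale, given as a description of libraries that share those 2 points. The log2 fold change between genotypes was -0.14 (SE 0.43, 95% interval -1.11 to 0.83, adjusted p = 0.933), and 0.01 (adjusted p = 0.983) without both libraries, an alternative chosen after seeing the data.

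Plasma membrane carriers overlapped between genotypes throughout. Slc1a2, the main astrocytic glutamate carrier, was at 5243, 5243, 5115 and 4240 CPM in 1b+/- mice and at 4815, 5177 and 4791 CPM in WT mice. The one low value belonged to 1b+/- mouse 4, the only female of the round, and the log2 fold change was 0.01 (SE 0.08, 95% interval -0.16 to 0.18, adjusted p = 0.977). Slc1a3, the other astrocytic glutamate carrier, stood at 764, 768, 707 and 633 CPM in 1b+/- mice and at 722, 810 and 770.4 CPM in WT mice. It was again lowest in 1b+/- mouse 4, with a log2 fold change of -0.10 (SE 0.07, adjusted p = 0.653).

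The neuronal carrier Slc1a1 was at 194, 184, 192 and 172 CPM in 1b+/- mice and at 179, 180 and 179 CPM in WT mice. The WT mice differed by less than 1 CPM and lay inside the range of the 1b+/- mice, with a log2 fold change of 0.05 (SE 0.05, adjusted p = 0.711). Slc6a11, the GABA carrier, stood at 190.1, 196, 209 and 251 CPM in 1b+/- mice and at 307, 201 and 215 CPM in WT mice. WT mouse 1 and 1b+/- mouse 4 were the highest of their genotypes, as for Slc17a6. Slc6a11 had a log2 fold change of -0.19 (SE 0.15, adjusted p = 0.669), which turned to 0.02 without WT mouse 1. Summed astrocyte markers ran from 1984 to 2090 CPM in 1b+/- mice and from 1978 to 2138 CPM in WT mice, and 0 of these 9 markers were called.

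**Figure D2:**
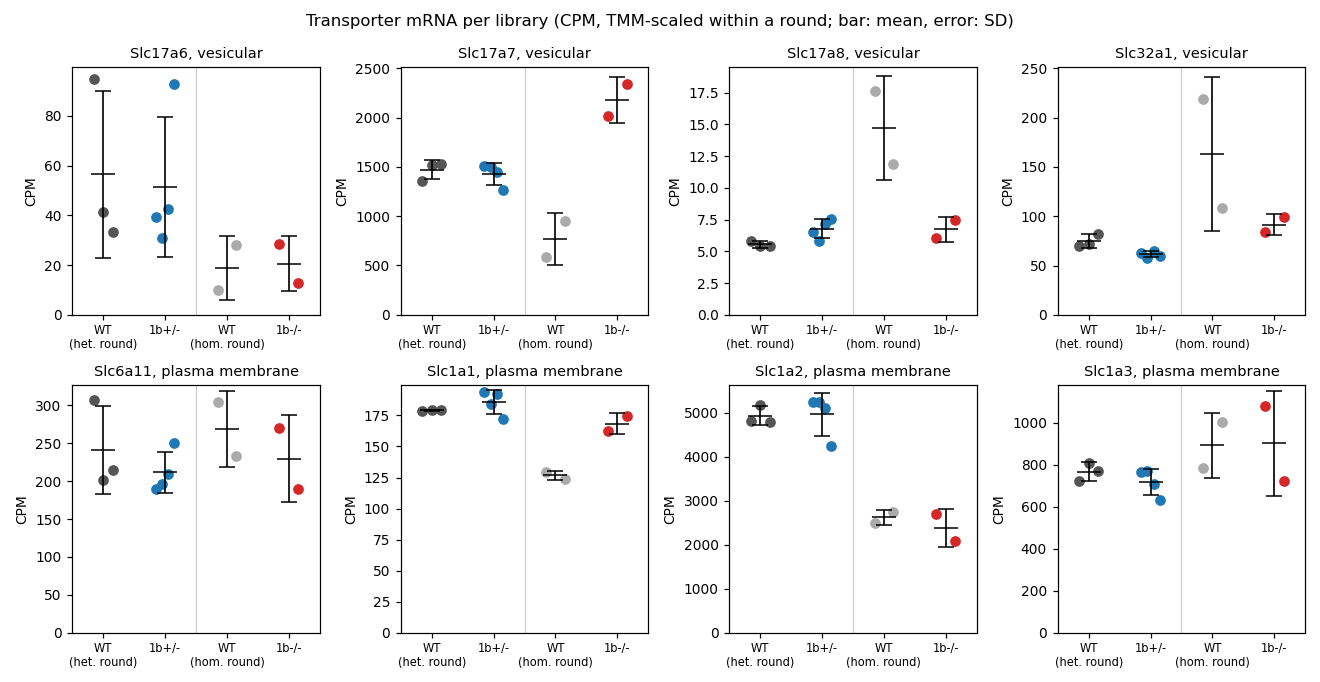
CPM of each transporter, scaled within a round, 1 point per library. Horizontal bars are group means and error bars SD. The WT and 1b+/- mice of the heterozygous round overlap for every member but Slc32a1, whereas in the homozygous round Slc17a7 and Slc1a1 are higher, and Slc17a8 and Slc32a1 lower, in both 1b-/- mice than in both WT mice.

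The same question was asked of loss of both copies by comparing the 2 1b-/- mice with the 2 WT mice of the homozygous round. The quasi-likelihood test called 0 of 8 members, against 3.58% of the 14838 genes tested (531 genes), while 3 members (Slc17a7, Slc17a8 and Slc1a1) and 3922 genes had an unadjusted p under 0.05. The likelihood ratio test called Slc17a7 and Slc17a8, among 1829 of the 14838 genes tested. DESeq2 called Slc17a7, Slc17a8 and Slc1a1, among 2144 of the 14838 genes. Groups did not overlap for 4 of 8 members, a smaller share than the 59.7% of all genes tested, so that groups without overlap were common among all genes in this round. The median absolute log2 fold change was 0.32 over the members and 0.31 over all genes tested. For vesicular carriers alone it was 0.98, and for plasma membrane carriers 0.18.

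Slc17a7 was at 2014 and 2344 CPM in the 1b-/- mice and at 582 and 955 CPM in the WT mice. Both 1b-/- libraries were more than 2-fold above the higher WT library. The log2 fold change was 1.504 (SE 0.28, 95% interval 0.78 to 2.22, adjusted p = 0.0584), or 2.83-fold. It ran from 1.19 without WT mouse 1 to 1.90 without WT mouse 2, and of the 4 fits that left out a library only the one without 1b-/- mouse 1 passed the threshold (1.61, adjusted p = 0.0387). Both WT libraries also had the low dentate sum, and their summed CA1 markers were 255 and 278 CPM against 838 and 541 CPM in the 1b-/- mice, with 2 of 4 CA1 markers and 2 of 4 CA3 markers called higher in 1b-/- mice. The part of these markers in the Slc17a7 value was not tested.

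Slc17a8 was at 6.05 and 7.43 CPM in 1b-/- mice and at 17.6 and 11.8 CPM in WT mice. Both 1b-/- values lay below both WT values, with a log2 fold change of -1.13 (SE 0.26, 95% interval -1.79 to -0.47, adjusted p = 0.0789). Slc32a1 stood at 84.0 and 98.9 CPM in 1b-/- mice and at 219 and 108 CPM in WT mice. Here only WT mouse 1 was far above the rest. The log2 fold change was -0.84 (SE 0.34, 95% interval -1.69 to 0.02, adjusted p = 0.196), and it shrank to -0.24 without WT mouse 1 and grew to -1.26 without WT mouse 2. WT mouse 1 also had the larger striatal sum (7814 against 3231 CPM) and cholinergic sum (119 against 55.8 CPM). Of the 11 striatal markers tested 9 were called lower in 1b-/- mice and of the 7 cholinergic markers 4, whereas 0 of 6 interneuron markers were called. Their part in the Slc17a8 and Slc32a1 values was not tested.

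Slc17a6 was at 28.5 and 12.7 CPM in 1b-/- mice and at 9.85 and 28.0 CPM in WT mice. Each genotype had 1 high and 1 low mouse, and the log2 fold change of 0.12 had an interval from -1.38 to 1.62 (SE 0.59, adjusted p = 0.917). The spread within genotypes was too wide to give a direction.

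Of the plasma membrane carriers, Slc1a1 did not overlap. It was at 162 and 174 CPM in 1b-/- mice and at 129 and 124 CPM in WT mice, and both 1b-/- values were above both WT values. For Slc1a1 the log2 fold change was 0.41 (SE 0.12, 95% interval 0.12 to 0.70, adjusted p = 0.109). The same 1b-/- libraries had the higher dentate sum (201 and 246 against 37.4 and 37.7 CPM) and the lower striatal sum (229 and 312 against 7814 and 3231 CPM), and the part of these markers in the Slc1a1 value was not tested. Slc1a2 stood at 2691 and 2081 CPM in 1b-/- mice and at 2502 and 2741 CPM in WT mice (log2 fold change -0.14, SE 0.21, adjusted p = 0.720), and the ranges overlapped. Slc1a3 was at 1079 and 725 CPM in 1b-/- mice and at 783 and 1003 CPM in WT mice (0.01, SE 0.25, adjusted p = 0.978). For both astrocytic carriers 1b-/- mouse 2, a female, was the lowest library and the 1b-/- mice differed from each other more than the group means did. Slc6a11 stood at 270.2 and 190 CPM in 1b-/- mice and at 305 and 234 CPM in WT mice (-0.23, SE 0.23, adjusted p = 0.560). Summed astrocyte markers were 2794 and 2608 CPM in 1b-/- mice and 2289 and 2206 CPM in WT mice. Of these 9 markers 5 were higher, 4 lower and 0 called, with a median log2 fold change of 0.10. Gfap was the one closest to the threshold (1.86, adjusted p = 0.0504). Its means were 662 CPM in 1b-/- and 182 CPM in WT mice, so that the higher sum does not describe the list as a whole.

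**Figure D3:**
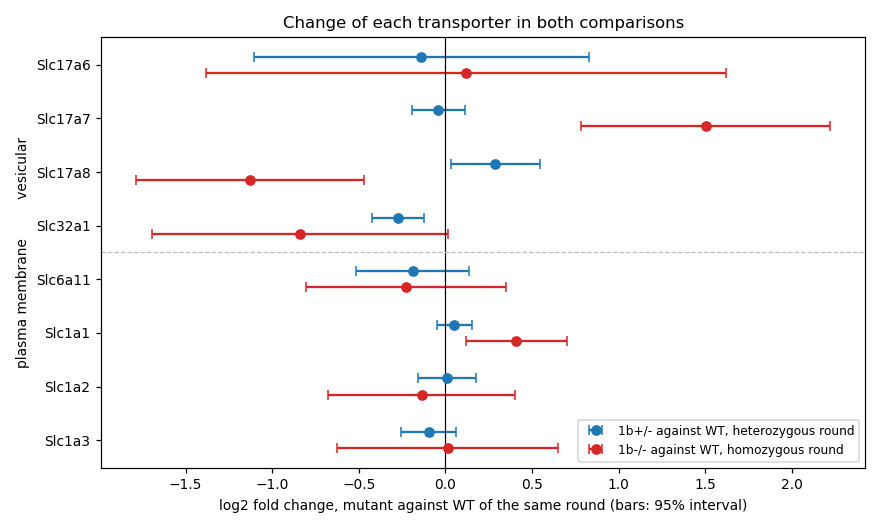
Log2 fold change of each transporter, mutant against WT mice of the same round, with 95% intervals from the quasi-likelihood fit. Vesicular carriers are above the dashed line and plasma membrane carriers below it. Intervals in the homozygous round (red) are wider than those in the heterozygous round (blue), and the one for Slc17a7 runs from 0.78 to 2.22.

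The difference between the change in 1b-/- mice and the change in 1b+/- mice was tested directly in a fit of all 11 libraries. It passed the threshold for 3 of 8 members, against 27.3% of the 14905 genes tested (4071 genes). Slc17a7 changed by 1.53 more on the log2 scale in 1b-/- mice (SE 0.24, adjusted p = 0.00165), and Slc17a8 by -1.43 (SE 0.24, adjusted p = 0.00255). The difference was 0.35 for Slc1a1 (SE 0.09, adjusted p = 0.0154) and -0.57 for Slc32a1 (SE 0.30, adjusted p = 0.185). The latter was called without WT mouse 2 of the homozygous round (-0.998, adjusted p = 0.00104) and was 0.02 without WT mouse 1 (adjusted p = 0.932). Without 1b-/- mouse 2 Slc1a1 was no longer called (0.31, adjusted p = 0.0501), nor was it with sex as a covariate (0.31, adjusted p = 0.0501), where Slc1a2 was (-0.41, adjusted p = 0.0423). This fit uses 1 estimate of spread for both rounds, although mice of a group varied more in the homozygous round (22.9% as a common coefficient of variation) than in the heterozygous one (9.13%), and the contrast contains the WT libraries of the homozygous round with their high striatal markers.

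Levels scaled over all 11 libraries set both WT groups side by side, although the tables were made separately and the rounds differ in read type. For Slc17a7 the means were 1511 CPM in heterozygous-round WT mice, 1468 in 1b+/- mice, 756 in WT mice of the homozygous round and 2130 in 1b-/- mice. The 1b-/- mean was thus 282% of the WT mean of its own round and 141% of the other WT mean. For Slc17a8 the means were 5.70, 6.96, 14.5 and 6.59 CPM in the same order, so that 1b-/- mice were at 45.5% of one WT mean and 116% of the other. Slc32a1 had means of 76.6, 63.2, 161 and 89.4 CPM and 1b-/- mice at 55.6% and 117% of the respective WT means. Slc1a1 was at 184, 191, 125 and 165 CPM, which put 1b-/- mice at 132% and 89.5%. For each of Slc17a7, Slc17a8, Slc32a1 and Slc1a1 the 1b-/- mean lay nearer to the WT mean of the heterozygous round than to that of its own round. For Slc17a7 it also lay above both WT means.

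Slc1a2, Slc17a6 and, by less, Slc1a1 differed between rounds in both genotypes. Slc1a2 had a mean of 5061 and 5094 CPM in WT and 1b+/- mice of the heterozygous round, but 2580 and 2336 CPM in WT and 1b-/- mice of the homozygous round. Slc17a6 had means of 58.1 and 52.8 CPM against 18.7 and 20.2 CPM. Slc1a1 ran from 177 to 199 CPM in libraries of the heterozygous round and from 122 to 169 CPM in those of the homozygous round. The remaining members, Slc6a11 and Slc1a3, had group means within 217 to 265 CPM and 737 to 883 CPM. Round, read type and mice cannot be told apart in these differences.

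**Figure D4:**
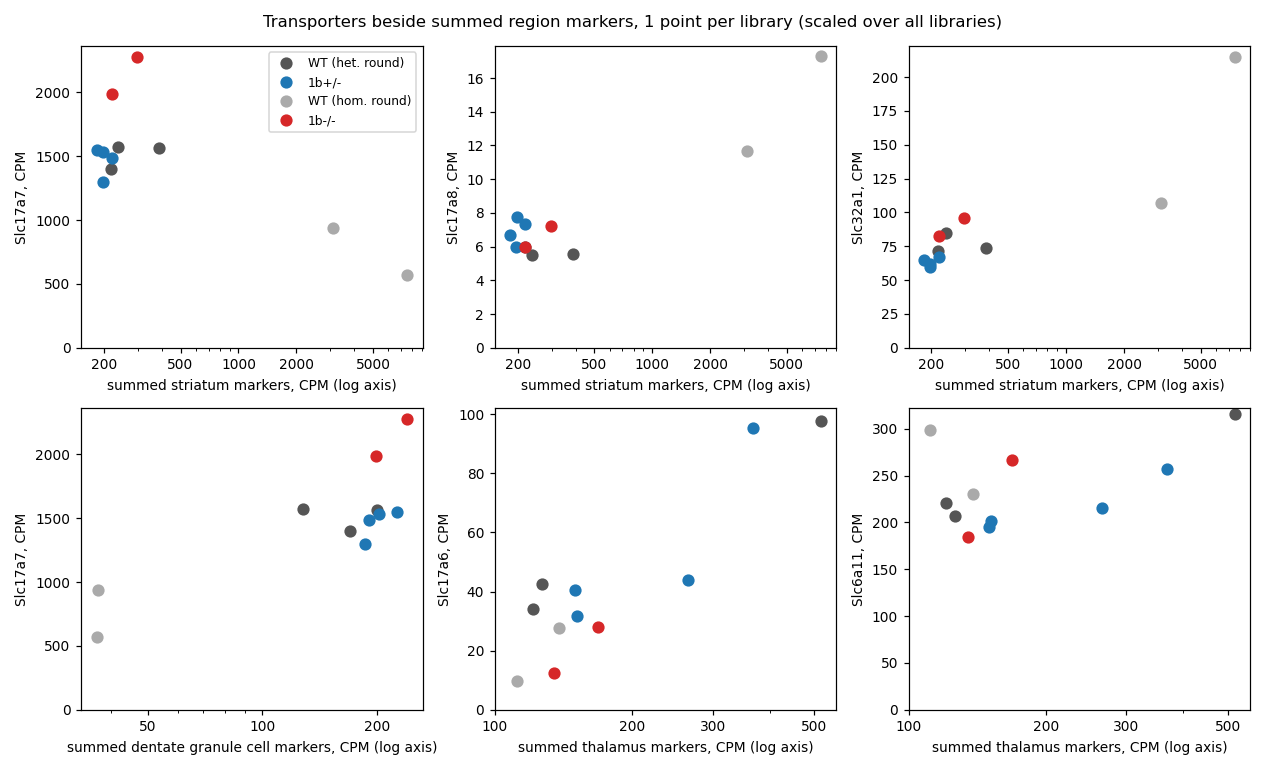
CPM of a transporter against the summed CPM of a marker list (log axis), scaled over all 11 libraries, 1 point per library. The 2 WT libraries of the homozygous round lie apart at the highest striatal sums, with the lowest Slc17a7 and the highest Slc17a8 and Slc32a1, and the 2 libraries with the highest thalamic sums have the highest Slc17a6.

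The balance of the carriers was described by ratios of RPKM within a library, which do not depend on library scaling. The sum of vesicular carriers over that of plasma membrane carriers was 0.920 to 1.04 in the 3 WT and 0.949 to 0.976 in the 4 1b+/- mice of the heterozygous round. It was 0.747 and 0.923 in the WT mice and 1.71 and 2.63 in the 1b-/- mice of the homozygous round. Slc17a7 carries most of this sum. It made up 94.9% to 98.4% of the 3 vesicular glutamate carriers in the heterozygous round, 97.0% and 97.3% in WT and 98.9% and 99.4% in 1b-/- mice of the homozygous round, and the lowest values, in WT mouse 1 and 1b+/- mouse 4, went with the high Slc17a6 of those libraries.

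The ratio of Slc17a7 to Slc32a1, the vesicular glutamate carrier of principal cells over the vesicular GABA carrier, was 17.8 to 20.2 in WT and 20.1 to 24.6 in 1b+/- mice of the heterozygous round. These ranges overlapped narrowly. In the homozygous round it was 2.54 and 8.42 in the WT mice and 22.9 and 22.6 in the 1b-/- mice, so the 1b-/- mice lay within the range of the heterozygous round and the WT mice of their own round did not. Among the 3 glutamate carriers of the Slc1a family, Slc1a2 had a share of 75.3% to 77.3% in libraries of the heterozygous round, against 57.3% to 62.8% in the other round. In the homozygous round it was 62.8% and 60.2% in WT and 57.3% and 58.3% in 1b-/- mice, and in the heterozygous round the genotypes overlapped.

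Other genes of the same pathway were taken as a list of 12 further carriers of glutamate, glutamine and GABA, of which 11 were tested in each comparison, and 10 enzymes that make or break down both transmitters, all tested. In 1b+/- mice 0 of 11 carriers and 0 of 10 enzymes were called, with 1 carrier and 3 enzymes at an unadjusted p under 0.05. The median log2 fold change was -0.05 over the carriers and -0.04 over the enzymes, against 0.00 over all genes tested. The smallest p belonged to Gad2, a glutamate decarboxylase that makes GABA, at 166 to 200 CPM in 1b+/- against 208 to 236 CPM in WT mice (log2 fold change -0.28, SE 0.07, adjusted p = 0.180). Its direction was that of Slc32a1, and its groups did not overlap. Next came Slc1a6, a further glutamate carrier of low level here, at 6.35 to 8.09 CPM in 1b+/- against 8.39 to 11.03 CPM in WT mice (-0.37, SE 0.13, adjusted p = 0.329), again without overlap. In 1b-/- mice 0 of 11 carriers and 1 of 10 enzymes were called, against 3.58% of all genes tested, and the one was again Gad2. Of the carriers 9 were higher and 2 lower (median log2 fold change 0.29), and of the enzymes 3 were higher and 7 lower (median -0.30, against -0.0013 over all genes tested), with 0 carriers and 4 enzymes at an unadjusted p under 0.05. Gad2 stood at 147 and 180 CPM against 313 and 357 CPM in WT mice (-1.03, SE 0.16, adjusted p = 0.0387), beside the striatal markers that were lower in the same libraries.

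To find the genes whose pattern was most like that of each member, log2(CPM + 1) was centred on the mean of each round and correlated over the 11 libraries with 11302 genes with a mean of at least 5 CPM in both rounds. The values are descriptions over libraries that share a genotype, a round and, in part, the marker differences given above. Slc17a7 was nearest to Prdm8 (Pearson's r = 0.998) and Plxna1 (0.997), whose log2 fold changes in 1b-/- mice were 2.96 and 1.46. Slc1a1 was nearest to Alas1 (0.991) and Gse1 (0.985). Slc17a8 was nearest to Osbp (0.975) and Sema3f (0.974), and Slc32a1 to Rps3a1 (0.959) and Zfp503 (0.956). For Slc17a6 the nearest genes were Kcnip4 (0.945) and Creg1 (0.936), and for Slc6a11 Nacc2 (0.928) and Kcnj12 (0.924). Slc1a2 was nearest to Prex2 (0.947) and Ppp2r2c (0.935), and Slc1a3 to Sirpa (0.953) and Lrrtm4 (0.941).

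Among the members themselves, over the same 11 centred libraries, Slc17a7 went with Slc1a1 (r = 0.878) and against Slc17a8 (-0.932) and Slc32a1 (-0.787). These 4 are the genes whose groups did not overlap in the homozygous round. The astrocytic carriers Slc1a2 and Slc1a3 went together (r = 0.843). With summed markers, r was 0.910 for Slc17a7 and 0.942 for Slc1a1 with the dentate granule cell list, and 0.866 for Slc17a8 and 0.818 for Slc32a1 with the striatum list. Other lists gave values of similar size, so these pairs are not particular to 1 cell type. For Slc17a7 r was 0.961 with the CA3 list and -0.94 with the striatum list. With the cholinergic list it was 0.892 for Slc17a8 and -0.90 for Slc1a1. For Slc1a2 and Slc1a3 r with the astrocyte list was -0.05 and 0.20, and with the microglia list 0.853 and 0.597, the largest of any list for both.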

How the data were processed

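RNA labelled as hippocampus, from 11 mice, was sequenced in 2 rounds with a stranded mRNA kit. Count tables, 1 per round, were deposited by the authors without normalization, from reads aligned to mm9 by STAR 2.7.2 and assigned to genes by featureCounts. The annotation and strand setting used in counting are not given in the sources used here. Per table, a total of 27 symbols had become dates (0.300% to 0.372% of the counts) and were dropped from any fit that joined both tables. Columns were matched to mice by the column name in the labels.

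Tests were run in edgeR 4.0.16 (R 4.3.3). A gene was tested if any library reached 1 CPM. After TMM scaling, glmQLFit and glmQLFTest gave p-values, which were adjusted over all genes tested by the Benjamini-Hochberg method and called under 0.05. Mutants were set against WT mice sequenced with them, and a single fit of all 11 libraries tested whether both changes differed. An SE here is the size of the log2 fold change over the square root of F, and 95% intervals use the t quantile at the degrees of freedom of the fit. CPM was scaled by TMM, within each round unless said otherwise. RPKM is CPM scaled over all 11 libraries and divided by the union of exons in GENCODE vM1. P-values set a difference between groups against the spread between mice of a group, and that spread includes the uneven marker sums given above. The fits were tested on simulated counts.

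Members, the pathway list and the 13 marker lists were chosen with earlier results of these data known. Named were the members, Scn1a, the pathway genes called or of smallest p, up to 2 markers per list with the smallest p, and 2 nearest genes per member. Alternatives were other tests (edgeR's likelihood ratio test and DESeq2 1.42.0), other scaling (RLE, upper quartile), other filters (filterByExpr, none), a term for sex, 1 fit of all libraries, and fits lacking each library in turn. At 20667122 to 36145161 counts per library, each member value rests on at least 122 counts. Counting error matters most for Slc17a8, the member with the lowest counts (122 to 217 per library in the heterozygous round). No sequence carried a finding and none is printed.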

Additional observations from a re-analysis of the deposited data

Results flagged for a closer look

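Of 8 sets of CPM values tested for a single sample far from the others, the members in the 4 1b+/- mice, 1 stood out, at a criterion that chance meets in about 1 in 20 groups. Slc1a2 in 1b+/- mouse 4 was 4240 CPM, below 5115 to 5243 CPM in the other 1b+/- mice, with a gap of 0.872 of the whole range against a critical value of 0.829. This mouse was the only female of the round and had the highest thalamic markers of the 1b+/- mice. The part of either was not tested.

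The change in 1b-/- mice differed from the change in 1b+/- mice, by the test of the difference itself, for 3 members. The difference on the log2 scale was 1.53 for Slc17a7 (adjusted p = 0.00165), -1.43 for Slc17a8 (adjusted p = 0.00255) and 0.35 for Slc1a1 (adjusted p = 0.0154). For Slc1a1 the call was lost without 1b-/- mouse 2 (0.31, adjusted p = 0.0501) and with sex as a covariate (0.31, adjusted p = 0.0501). Of all genes tested 27.3% passed the same threshold, and each of these contrasts contains the WT libraries of the homozygous round.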

How the results depend on the processing

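No paired analysis was possible because replicate numbers in the labels follow accession order and pair no mice. In 1b+/- mice, genes called rose from 0 to 191 with the likelihood ratio test, 245 with DESeq2, 44 with no filter and 408 without WT mouse 1 and 1b+/- mouse 4 (chosen after seeing the data). Leaving out 1 library gave 0 to 421, the highest without WT mouse 1. Members called were 1 with DESeq2 (Slc32a1) and 0 to 1 with a library left out. In 1b-/- mice, genes called went from 531 to 1829 (likelihood ratio test), 2144 (DESeq2), 1029 (no filter) and 5541 (all 11 libraries in 1 fit), and 0 to 693 with a library left out, 0 being without WT mouse 1 and 192 without WT mouse 2. Members called were 2, 3, 1 and 4 in the same order, 1 with sex as a covariate, and 0 to 1 with a library left out. Members called for the difference ran from 2 to 4 with a library left out.

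Of the values of single members, 115 of 128 kept direction and side of the threshold in 1b+/- mice, 75 of 96 in 1b-/- mice and 103 of 120 for the difference. With sex as a covariate the log2 fold change turned to 0.0139 for Slc17a7 in 1b+/- mice, and to -0.58 for Slc17a6 and -0.30 for Slc1a3 in 1b-/- mice, and the difference to -0.21 for Slc1a3. In 1b-/- mice 1 male made up the sex term, which cannot be told apart from that mouse. With upper-quartile factors Slc1a3 was -0.0027 in 1b-/- mice, and without both libraries of high thalamic markers Slc17a6 was 0.0111 in 1b+/- mice. Leaving out 1 library turned these signs, with ranges in 1b+/- mice of -0.59 to 0.47 for Slc17a6, -0.0937 to 0.0138 for Slc17a7, -0.30 to 0.0233 for Slc6a11 and -0.0181 to 0.0777 for Slc1a2. In 1b-/- mice they were -0.58 to 1.06 for Slc17a6, -0.51 to 0.0056 for Slc6a11, -0.33 to 0.0383 for Slc1a2 and -0.30 to 0.27 for Slc1a3. For the difference they were -0.46 to 1.20 for Slc17a6, -0.998 to 0.0205 for Slc32a1, -0.34 to 0.19 for Slc6a11, -0.36 to 0.0288 for Slc1a2 and -0.22 to 0.37 for Slc1a3. The cause of these changes was not tested, beyond the number of libraries in each fit.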
